A study of Homo sapiens with 9 samples.

Results

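The transcriptome of H460-ERT2-RUNX3-K94/171R cells 8 h after serum stimulation was set against that of the same cells at the end of starvation. H460 is an established line from a human large cell lung carcinoma, with an inactivated RUNX3 gene, and the mutant line carries in addition a stably transfected fusion of RUNX3 to ERT2. ERT2 is a modified ligand-binding domain of the estrogen receptor that holds its partner outside the nucleus until 4-hydroxytamoxifen (4-OHT) is bound, and in K94/171R the 2 lysines of RUNX3 whose acetylated form binds the bromodomain protein BRD2 are arginines. The 0 h library came from cells at passage 11 after 24 h without serum, and the 8 h library from such cells given 10% serum and 1 µM 4-OHT together, so that serum, 4-OHT and nuclear entry of the mutant fusion cannot be told apart in this comparison. The promoter that drives the fusion and the number of clones were not given in the sources used here. The series holds 9 libraries, 1 for each of 3 lines (H460, H460-ERT2-RUNX3 WT and the mutant) at 0, 8 and 16 h. The members are the genes of the mutant line's table whose FPKM (fragments of RNA per length of transcript and per depth of library) reached 1 at 0 h or at 8 h. This holds for 11252 of 19869 genes, 56.6% of the table. Every change below is log2(FPKM + 0.05) at 8 h minus that at 0 h, and since each time point is 1 library, a change has no replicate check and is described without a test.

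Cells that leave starvation pass through a restriction point late in G1, after which they replicate their DNA without further need of growth factors. Serum brings growth factors, lipoprotein cholesterol, metals, glucocorticoids and BMP ligands, and each of these acts on its own set of genes. Growth factor signalling turns down the FOXO factors and raises the synthesis of ribosomes, cholesterol from lipoprotein turns down the SREBP factors that drive sterol synthesis, and serum also resets the circadian clock. RUNX3 is a transcription factor that works with CBFB and is studied here as a guide of chromatin complexes at the restriction point.

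RUNX3 itself (chr1:25226002-25291612 on hg19, minus strand) was listed at an FPKM of 2.12 at 0 h, 0.712 at 8 h and 2.11 at 16 h, a change of -1.51 at 8 h. These levels do not stand out as those of an overexpressed fusion. Whether the table's gene model and the fusion's RNA share enough sequence to count it is not known, so that this value checks no label. ESR1, whose ligand-binding domain is the source of ERT2, had 3.22, 2.04 and 3.61. The partner CBFB stood at 44.6, 50.9 and 44.3, RUNX1 at 4.76, 3.61 and 4.54, and RUNX2 was at or under 0.0632 in the 3 libraries.

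The FPKM of all genes summed to 603652 at 0 h and 588309 at 8 h. Read numbers are not given by FPKM, and the depth of each library is unknown. Over 1460 genes above 0 in both libraries and under an FPKM of 0.3 at 0 h, the most frequent ratio of 8 h to 0 h was 0.994, with 56 genes at it. Of 6 epithelial markers 4 were kept, among them KRT8 with 662 at 0 h and 698 at 8 h, while CDH1 and EPCAM did not exceed 0.248 in these libraries. Mesenchymal markers were kept for 4 of 5, among them VIM with 978 and 809, ZEB2 with 17.6 and 12.8 and ZEB1 with 3.73 and 5.20. None of 7 markers of lung lineages was kept, with summed FPKM of 0.205 at 0 h and 0 at 8 h. Of the other cell types, 2 of 6 fibroblast, 1 of 5 leukocyte, 2 of 5 neuroendocrine, 0 of 4 endothelial and 0 of 3 erythroid markers were kept, PECAM1 of the endothelial list not being in the table. The defining leukocyte genes PTPRC and CD3E were at or under 0.0155 in both libraries, and the fibroblast sum was 9.78 at 0 h and 7.77 at 8 h. In these bulk libraries, fewer cells of a type and less RNA per cell cannot be told apart.

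Changes were centred near 0 and more genes were far below 0 h than far above. The median change was 0.01, and the range from the 5th to the 95th percentile ran from -0.75 to 0.64. At 8 h 143 genes (1.27%) were at least 1 log2 unit higher and 280 (2.49%) at least 1 lower. At 2 log2 units, 16 genes (0.142%) were higher and 53 (0.471%) lower. By any amount, 5713 genes (50.8%) were higher and 5539 (49.2%) lower. The excess of lower genes lay at low levels, since among 830 genes whose higher FPKM lay between 1 and 2, 34 were at least 1 higher and 85 at least 1 lower, against 18 and 14 of 1874 genes at 50 or more. Just inside and outside 1 log2 unit lay HOXD13 at 1.006 and HK2 at 0.998 on the rising side, and TRAF1 at -1.003 and NSDHL at -0.9997 on the falling side.

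**Figure D1:**
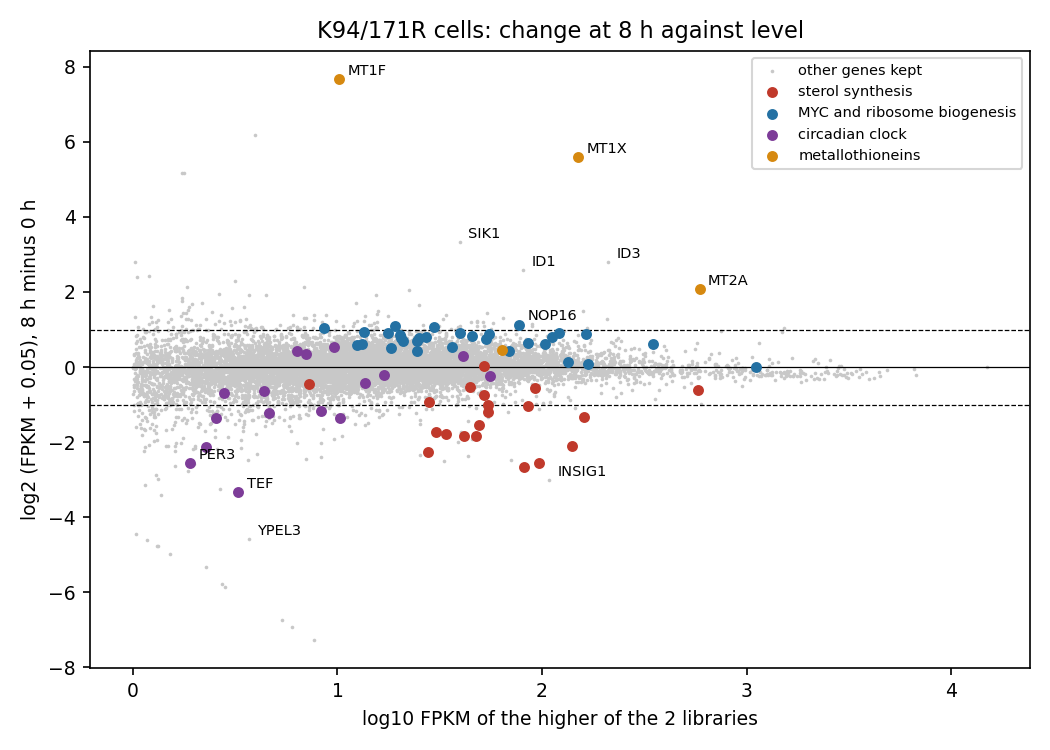
Each point is a gene kept, with the log10 FPKM of the higher library on the horizontal axis and the change at 8 h, in log2 (FPKM + 0.05), on the vertical axis; dashed lines mark 1 log2 unit. Of the coloured lists, 19 of 20 sterol synthesis genes lie below 0, all 31 genes of MYC and ribosome biogenesis lie above 0, and MT1F, MT1X and MT2A are among the genes farthest above.

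The sterol synthesis genes formed the list with the lowest median. Cholesterol is made from acetyl-CoA through mevalonate, and the genes of this route are driven by SREBP2, which INSIG1 and SCAP hold in the endoplasmic reticulum when sterols are plentiful. Of 20 genes from ACAT2 onward, 20 were kept, 0 were at least 1 higher, 12 were at least 1 lower, and the median change was -1.26, against 0.01 for all genes kept. Of all genes kept, 2.49% were at least 1 lower. PMVK, with 51.3 at 0 h and 51.9 at 8 h, was the single member above 0. The promoters of HMGCS1, MSMO1 and INSIG1 are shown for the genes of the sterol lists with the largest falls, as RefSeq gives them on GRCh38.p14 from 250 bases before to 50 after the start, with capitals for CCAAT on either strand, the letters bound by NF-Y, a factor known to work beside SREBP.
HMGCS1, chr5:43313363-43313662, minus strand: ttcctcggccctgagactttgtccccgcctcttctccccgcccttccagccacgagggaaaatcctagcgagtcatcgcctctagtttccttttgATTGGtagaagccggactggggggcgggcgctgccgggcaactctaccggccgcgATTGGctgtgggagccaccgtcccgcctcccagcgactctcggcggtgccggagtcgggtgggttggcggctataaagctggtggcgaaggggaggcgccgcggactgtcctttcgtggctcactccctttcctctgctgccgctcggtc
MSMO1, chr4:165327419-165327718, plus strand: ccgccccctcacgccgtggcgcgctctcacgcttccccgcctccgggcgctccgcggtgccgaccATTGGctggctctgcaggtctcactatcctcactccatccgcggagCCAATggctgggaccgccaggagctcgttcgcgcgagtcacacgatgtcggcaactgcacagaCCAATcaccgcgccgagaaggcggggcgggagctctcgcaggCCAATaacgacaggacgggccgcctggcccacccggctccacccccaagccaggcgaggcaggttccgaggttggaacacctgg
INSIG1, chr7:155297628-155297927, plus strand: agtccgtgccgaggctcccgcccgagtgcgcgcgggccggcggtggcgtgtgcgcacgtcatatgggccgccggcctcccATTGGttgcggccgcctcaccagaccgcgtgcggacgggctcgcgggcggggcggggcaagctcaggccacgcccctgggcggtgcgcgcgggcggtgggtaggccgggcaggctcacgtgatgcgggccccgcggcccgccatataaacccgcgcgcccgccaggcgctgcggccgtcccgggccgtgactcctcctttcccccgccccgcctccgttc
These hold 2, 4 and 1 matches. CCAAT was found in 12 of the 15 sterol synthesis promoters in the RefSeq table (80.0%), against 35.7% of all 27305 promoters and 37.1% of those of genes kept. Those of IDI1, CYP51A1 and PMVK had 0 matches, with changes of -2.10, -1.20 and 0.02. The share was 60.0% for sterol uptake and regulation. It was also high in lists that did not fall so, at 83.3% for mitotic genes, whose median change was -0.16, and 57.1% for replication genes, whose median was 0.39. The strict sterol regulatory element TCACNCCAC was found in 0 of the 15 sterol synthesis promoters and in 1.15% of all promoters. This says only that these letters are not in the window.

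Along the route, the largest differences were at HMGCS1, MSMO1, MVK and IDI1. HMGCS1 (chr5:43287572-43313614, hg19), which makes HMG-CoA, went from an FPKM of 81.3 at 0 h to 12.8 at 8 h and stood at 15.2 at 16 h, so that its level at 0 h was 6.36 times that at 8 h. MVK, mevalonate kinase, had 27.6, 5.67 and 7.92. The next steps differed less evenly: MVD, which decarboxylates the pyrophosphate, was at 33.9, 9.76 and 7.93, and IDI1, the isomerase that follows, at 139.6, 32.6 and 30.5. FDPS, which makes farnesyl pyrophosphate and had the highest level of the list, went from 581 to 377 and stood at 161 at 16 h. Its change of -0.62 was thus small at 8 h and its level lower again at 16 h.

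The committed sterol steps shared this pattern of a high 0 h library and low later ones. Squalene is made by FDFT1, which stood at 160 at 0 h, 64.0 at 8 h and 48.8 at 16 h, and is oxidised by SQLE, at 49.2, 16.8 and 13.9. LSS, which closes the ring to lanosterol, had 41.4, 11.5 and 11.5. MSMO1, the methylsterol oxidase, had 96.6, 16.4 and 21.9, a change of -2.56 at 8 h. Of the enzymes after MSMO1, HSD17B7 had a change of -1.74, and the differences were smaller for DHCR7 at -1.04, SC5D at -0.92 and EBP at -0.55.

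Regulators and a carrier were lower at 8 h like the enzymes, and several were nearer their 0 h level at 16 h. INSIG1 (chr7:155089486-155101945, hg19), which retains SCAP and is itself an SREBP target, went from 108.3 at 0 h to 13.3 at 8 h, the largest fall of any gene with a symbol whose FPKM reached 10 at either time, and stood at 26.0 at 16 h. STARD4, a sterol carrier, had 40.1, 12.003 and 26.7, and SREBF1, which encodes SREBP1, had 54.9, 23.8 and 68.5. SCAP itself was at 11.8 and 11.7, and MYLIP, an LXR target, was higher, at 3.38 and 4.76. ABCA1 and ABCG1, the efflux pumps that LXR drives, were not kept, with 0.603 and 0.532 at 0 h, 0.205 and 0.0878 at 8 h, and 2.19 and 2.36 at 16 h. In this list of 14, 11 genes were kept, 4 were at least 1 lower and 0 at least 1 higher. The shares over all genes kept were 2.49% and 1.27%.

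**Figure D2:**
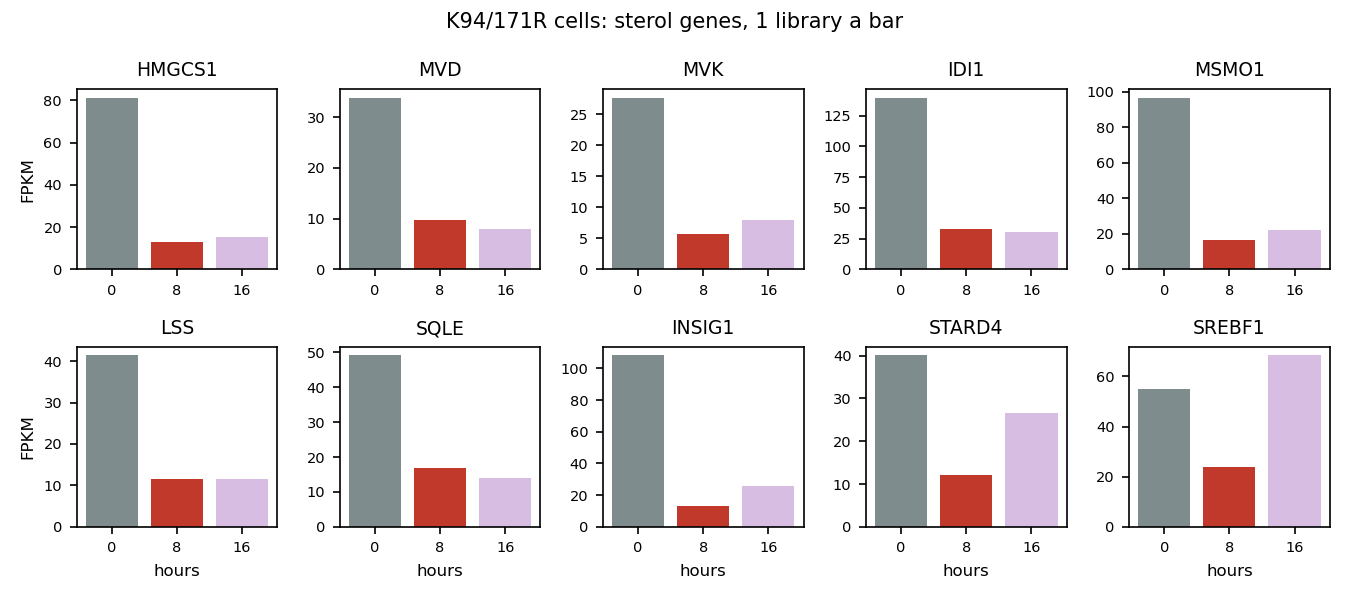
Bars give the FPKM (vertical axis, from 0, with its own scale in each panel) of 10 sterol genes at 0, 8 and 16 h (horizontal axis), each bar being 1 library with no error. In each panel the 8 h bar is below the 0 h bar, from 108.3 to 13.3 for INSIG1 and from 54.9 to 23.8 for SREBF1.

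Fatty acid synthesis, which SREBP1 drives, was lower by smaller amounts. Of 13 genes kept out of 14, 11 were lower, 1 by at least 1 log2 unit, and the median change was -0.57. The shares over all genes kept were 49.2% and 2.49%. ACSS2, which activates acetate, had 24.2 at 0 h, 10.4 at 8 h and 11.1 at 16 h. SCD, the desaturase that makes oleate, went from 601 to 306 and to 212, and FASN, the synthase, from 110 to 57.6 with 69.0 at 16 h. LPIN1, a phosphatidate phosphatase named for its size among genes of FPKM 10 or more, had 25.2, 4.92 and 7.48.

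Metallothioneins MT1F and MT1X had the largest positive changes of the genes with a symbol. They are small cysteine-rich proteins that bind zinc and copper, and MTF1 induces them through metal response elements when free zinc increases. The promoters of MT1X and MT2A are shown because both genes were far higher at 8 h and both are in the RefSeq table. Capitals mark the metal response element letters TGCACNC or TGCGCNC on either strand, chosen after the values were seen.
MT1X, chr16:56682220-56682519, plus strand: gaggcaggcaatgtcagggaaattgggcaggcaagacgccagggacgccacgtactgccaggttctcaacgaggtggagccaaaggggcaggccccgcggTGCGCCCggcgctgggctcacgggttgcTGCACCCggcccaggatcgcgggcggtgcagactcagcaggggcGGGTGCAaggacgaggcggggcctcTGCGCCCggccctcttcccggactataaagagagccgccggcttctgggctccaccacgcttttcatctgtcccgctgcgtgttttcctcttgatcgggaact
MT2A, chr16:56608334-56608633, plus strand: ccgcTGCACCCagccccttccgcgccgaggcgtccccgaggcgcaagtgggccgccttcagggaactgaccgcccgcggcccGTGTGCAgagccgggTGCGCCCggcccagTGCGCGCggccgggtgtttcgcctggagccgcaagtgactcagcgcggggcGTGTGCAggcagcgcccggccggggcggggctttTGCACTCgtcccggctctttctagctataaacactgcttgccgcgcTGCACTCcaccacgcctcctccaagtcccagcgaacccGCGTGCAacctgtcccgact
The first holds 4 matches and the second 8. At least 4 were found in 0.593% and at least 8 in 0.022% of all RefSeq promoters, matches that overlap being counted each. At least 1 was found in 29.3% of all promoters and 39.6% of those of genes kept.

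MT1X (chr16:56716382-56718108, hg19) went from an FPKM of 3.08 at 0 h to 151 at 8 h, 48.9 times its 0 h level, and stood at 23.2 at 16 h. MT2A (chr16:56642496-56643409), the most abundant of the family, had 139, 589 and 344. MT1F (chr16:56691643-56694610) was listed at 0 at 0 h, with 10.2 at 8 h and 3.53 at 16 h, so that its change of 7.68 depends on the pseudocount. MT1A, in the same cluster, had 46.5, 64.0 and 70.0 and thus a change of 0.46. Of 11 metallothionein genes 4 were kept, 4 were higher and 3 were at least 1 higher, while 6 were listed at 0 in both libraries. The shares over all genes kept were 50.8% higher and 1.27% at least 1 higher. The list was made after the values were seen. The family's members are near copies of each other, and how the authors' counting shared reads among them is not given, so that the split between MT1 genes is uncertain.

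Zinc transporters, a list also made after the values were seen, had a median change of 0.03 over 18 kept of 24. SLC39A10, an importer of zinc at the cell surface, was the single member past 1 log2 unit, at 39.0, 9.77 and 15.3. The share of all genes kept that were at least 1 lower was 2.49%. SLC30A1, the zinc exporter that MTF1 also induces, had 17.5, 23.9 and 26.6.

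**Figure D3:**
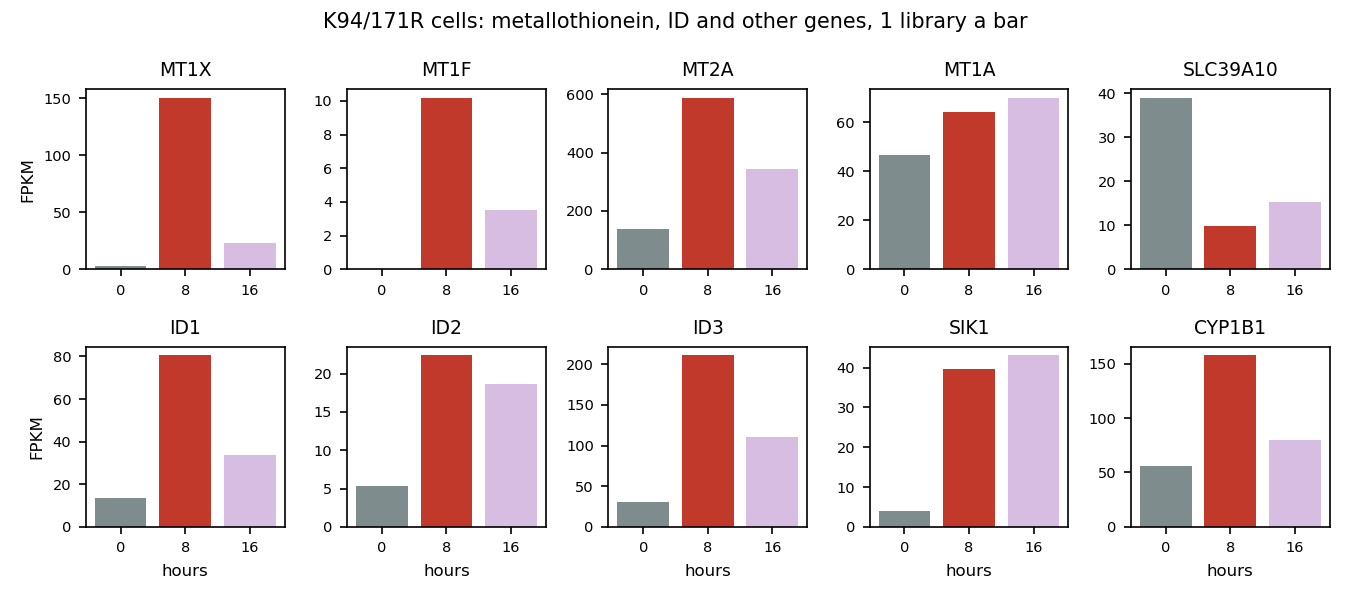
Bars give the FPKM (vertical axis, from 0, with its own scale in each panel) of 10 genes at 0, 8 and 16 h (horizontal axis), 1 library a bar with no error. The 8 h bar is the highest for MT1X (151), MT1F, MT2A, ID1, ID2, ID3 (211) and CYP1B1, the 16 h bar is the highest for MT1A and SIK1, and SLC39A10 is highest at 0 h.

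The ID genes, direct targets of BMP receptors through SMAD1 and SMAD5, encode proteins that block helix-loop-helix factors. ID3 (chr1:23884417-23885992, hg19) had 30.4 at 0 h, 211 at 8 h and 111 at 16 h, and ID1 (chr20:30193086-30194318) had 13.3, 80.6 and 33.8. ID2 had 5.33, 22.4 and 18.6, and ID4 had 1.24, 2.98 and 3.16. All 4 ID genes were thus at least 1 higher at 8 h, with ID1 and ID3 part of the way back at 16 h. SMAD6, an inhibitor of the pathway that BMP induces, had 1.62, 3.53 and 1.75, and PMEPA1, a TGF-beta target, had 1.12, 2.52 and 1.68. These 6 genes were the members at least 1 higher among 16 kept of the 18 on the TGF-beta and BMP list, whose median was 0.22. Of all genes kept, 1.27% were at least 1 higher. The TGF-beta target TGFBI did not share this, with 1258 and 1292. Of the ligands, BMP6 was at 2.05 and 3.14 and BMP5 at 4.45 and 1.87, and BMP2, BMP4 and BMP7 were at or near 0 in both libraries.

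Several other genes named by size were higher. SIK1 (chr21:44834363-44847011, hg19), a kinase that cAMP and salt induce, had 3.90, 39.6 and 43.1 at 0, 8 and 16 h; newer assemblies hold a near copy of it, so that its level is uncertain. CYP1B1, a target of the aryl hydrocarbon receptor that hydroxylates estrogens, had 55.8, 158 and 80.2. The receptor's other targets AHRR and TIPARP had 1.37 and 2.46, and 6.22 and 7.12, and CYP1A1 was not kept, at 0.0337 and 0.628. Among chemokines, CXCL2 had 8.00, 25.1 and 11.3, and CCL20 had 5.27, 13.7 and 6.39. They were the 2 of 12 kept genes of the NF-kB and cytokine list past 1 log2 unit, against 1.27% of all genes kept that were at least 1 higher. In the same list CXCL8 stood at 145 and 165 and NFKBIA at 23.0 and 30.9. PASK, a nutrient-sensing kinase, had 4.09, 15.5 and 4.30, and PLIN2, which coats lipid droplets, had 5.69, 13.4 and 13.4.

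Genes of ribosome assembly were higher by small amounts. The list of MYC and ribosome biogenesis held 31 genes, all kept and all above 0, with 4 at least 1 higher, 0 at least 1 lower and a median change of 0.77. This compares with 50.8% of all genes kept that were higher, 1.27% at least 1 higher and 2.49% at least 1 lower. MYC itself had 51.9, 69.2 and 52.7. The 4 past 1 log2 unit were NOP16 at 35.2, 77.1 and 30.0, PPAN at 8.97, 19.1 and 8.83, GAR1, a protein of the snoRNPs that modify ribosomal RNA, at 14.3, 29.8 and 15.3, and BOP1 at 4.16, 8.64 and 3.66. Subunits of RNA polymerase I were also higher, POLR1B at 12.9 and 20.8 and POLR1C at 11.3 and 20.2. The list's median FPKM was 21.0 at 0 h, 36.5 at 8 h and 21.96 at 16 h. The abundant NPM1, a nucleolar chaperone, was at 1097 and 1107 and showed nearly no difference. The E-box CACGTG, bound by MYC and by clock factors and chosen after the values were seen, was found in 8 of 25 promoters of this list (32.0%), in 24 of 109 promoters of the genes at least 1 higher (22.02%), in 10.6% of genes kept and in 7.43% of all promoters.

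The MYC and MAX network was a list made after the values were seen. Of 11 kept of 13, 5 were higher and 6 lower, against 50.8% and 49.2% of all genes kept, and the median was -0.13. Among the 6 lower, 3 were lower by at least 1, against 2.49% of all genes kept. These 3 were MXD1, MXD3 and MXD4, which pair with MAX in place of MYC, with 1.62 and 0.617, 10.1 and 4.97, and 13.0 and 5.52 at 0 and 8 h. Of the others that pair with MAX in place of MYC, MXI1 had 6.78 and 6.20 and MNT had 5.76 and 3.23, and MAX itself had 29.5 and 33.3. The proteins of the finished ribosome went the other way from its assembly factors by a small amount. Of 78 cytosolic ribosomal protein genes 77 were lower, against 49.2% of all genes kept. Changes ran from -0.36 to 0.04 with a median of -0.17, and the median FPKM went from 1568 to 1382.

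Most heat shock and nucleotide synthesis genes were higher along with ribosome assembly, unlike the enzymes of sterol and fatty acid synthesis. Of 12 heat shock protein genes 11 were higher, 4 by at least 1, and the median was 0.49. Of all genes kept, 50.8% were higher and 1.27% at least 1 higher. HSPA8, the abundant constitutive HSP70, had 736, 1519 and 690, and HSPH1, its exchange factor, had 42.3, 89.7 and 54.9. HSPA1A had 26.2 and 64.7 and HSPA1B 18.8 and 39.9, and since these are near copies their split is uncertain. HMOX1, which degrades haem, had 36.7, 74.5 and 24.7. It was the single member past 1 of 21 NRF2 targets kept, against 1.27% of all genes kept, and that list's median was -0.02. SQSTM1, an autophagy receptor, had 779, 1490 and 747, in a list whose median was 0.00. ODC1, the first enzyme of polyamine synthesis, had 105, 174 and 101, while the polyamine list had a median of 0.08. Of 21 nucleotide synthesis genes 17 were higher, 0 by at least 1, with a median of 0.28, against the same shares of all genes kept.

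Cell cycle genes separated into a replication part that was higher and a mitotic part that was not. Of 31 genes of replication licensing and forks 29 were higher, 0 by at least 1 log2 unit, and the median was 0.39. Of all genes kept, 50.8% were higher. GINS2, of the replicative helicase, had 7.04, 12.5 and 5.42, and MCM4 had 40.0, 61.8 and 29.4. The phosphatase CDC25A, which activates CDK2, had 6.62, 15.1 and 7.24. It was the member past 1 among 19 kept in the list of cyclins, CDKs and E2Fs, against 1.27% of all genes kept. In the same list E2F1 had 19.0 and 28.1, CCNE2 7.57 and 11.0, and CCND1 43.7 and 47.7. Of 30 mitotic genes 20 were lower, against 49.2% of all genes kept, and none was past 1 log2 unit, with a median of -0.16. CDC25C, which activates CDK1, had 10.6, 5.51 and 10.0, whereas CDC20 had 66.2, 92.0 and 72.2.

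Inhibitors of CDKs were lower at 8 h, as were TP53INP1, BBC3 and MDM2. CDKN1A, which encodes p21, had 146 at 0 h, 68.5 at 8 h and 247 at 16 h, a change of -1.09 at 8 h. CDKN2D, an inhibitor of CDK4 and CDK6, had 6.50, 2.49 and 4.86, CDKN1B had 10.5 and 7.69, and CDKN2C had 19.7 and 16.9. CDKN2A, the locus of ARF and p16, was listed at 0 in all 3 libraries. TP53INP1 had 6.99, 1.24 and 8.10, BBC3, which encodes PUMA, had 3.60, 1.63 and 5.84, and MDM2 had 31.6, 21.3 and 42.8.

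The proteins of the restriction-point complexes differed little in RNA. Of 21 members 20 were kept, and CDKN1A was the single one past 1 log2 unit, against 2.49% of all genes kept that were at least 1 lower. BRD2, whose contact with RUNX3 the mutation removes, had 44.8, 44.1 and 37.0, EP300 had 7.55, 7.20 and 6.52, and TAF7 had 72.2, 68.2 and 63.4. SMARCA4, the ATPase of SWI/SNF, had 17.8 and 22.6 and EZH2 18.2 and 20.2.

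Genes that starvation and the FOXO factors raise were lower. Of 20 kept of 22, 18 were lower, 7 of them by at least 1, and the median was -0.71. Of all genes kept, 49.2% were lower and 2.49% at least 1 lower. TXNIP (chr1:145438490-145442635, hg19), which restrains glucose uptake, had 70.5, 12.7 and 54.2, and its relative ARRDC4 had 7.21, 2.95 and 5.02. CCNG2, a cyclin of resting cells, had 12.2, 4.25 and 13.8. YPEL3, a growth-arrest gene, had 3.69, 0.106 and 3.47, and YPEL5 had 43.4, 16.0 and 25.9. In contrast IRS2 was at 24.1 in both libraries, and ARRDC3 was at 13.6 and 16.2. The glucocorticoid target TSC22D3 was lower as well, at 8.31, 2.01 and 6.70, while FKBP5, another such target, was at 8.01 and 10.7.

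Several genes of the circadian clock were lower at 8 h. In the clock, BMAL1 and CLOCK act through E-boxes on the PER, CRY and NR1D genes, whose proteins then restrain them. The promoter of TEF, the clock output factor furthest below its 0 h level among the clock genes kept, is shown with the E-box CACGTG in capitals.
TEF, chr22:41367205-41367504, plus strand: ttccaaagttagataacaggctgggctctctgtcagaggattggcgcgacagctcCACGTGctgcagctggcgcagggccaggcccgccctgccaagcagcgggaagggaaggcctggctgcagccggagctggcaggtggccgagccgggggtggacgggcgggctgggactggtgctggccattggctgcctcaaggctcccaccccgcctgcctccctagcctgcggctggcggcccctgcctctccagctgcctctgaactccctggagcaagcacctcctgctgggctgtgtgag
The E-box was found in 4 of the 16 promoters of clock genes kept, those of TEF, PER1, BHLHE40 and BHLHE41, against 10.6% of those of all genes kept. PER2, PER3, CRY2, NR1D1 and NR1D2 had 0 matches in this window.
TEF had 3.27 at 0 h, 0.280 at 8 h and 2.03 at 16 h. PER3 had 1.91, 0.283 and 2.27, PER2 had 2.28, 0.481 and 1.90, and PER1 had 4.62, 1.95 and 6.54. The 7 of 16 kept clock genes at least 1 lower were these 4 with CRY2, NR1D1 and NR1D2, against 2.49% of all genes kept. NR1D2 was at 10.3, 3.98 and 9.26, and the list's median was -0.67. The activators were above their 0 h level, with BMAL1 at 4.71 and 6.37 and CLOCK at 5.48 and 6.99. Most of these genes are at low FPKM, where single libraries are least exact, and over the members whose FPKM reached 5 the median was -0.22.

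Immediate early genes, which serum induces within the first hour, had no common direction at 8 h. Of 23 kept of 25, 11 were higher and 12 lower, against 50.8% and 49.2% of all genes kept, with a median of -0.01. FOS had 45.4, 12.04 and 13.99 and FOSB 1.27, 0.501 and 0.491. They were the 2 past 1 log2 unit, against 2.49% of all genes kept that were at least 1 lower. FOSL1, a later member of the family, had 10.2, 20.4 and 15.0, and EGR1 had 28.2 and 20.8. The ERK feedback gene DUSP2 had 2.80 and 7.02, and DUSP6 had 31.7, 18.5 and 49.0.

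Several other lists had medians near 0. Medians were -0.20 for YAP/TEAD targets and for the interferon response, 0.01 for the ATF4 and amino acid response, -0.04 for the unfolded protein response, 0.15 for glycolysis, 0.04 for the hypoxia response and 0.00 for lysosome and autophagy. Most YAP/TEAD and interferon genes were nonetheless lower, 17 of 21 and 16 of 20 kept, against 49.2% of all genes kept. Among these 7 lists, STC2 of the ATF4 list was the single gene past 1 log2 unit, at 22.5, 51.3 and 24.2. The shares over all genes kept were 1.27% at least 1 higher and 2.49% at least 1 lower.

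**Figure D4:**
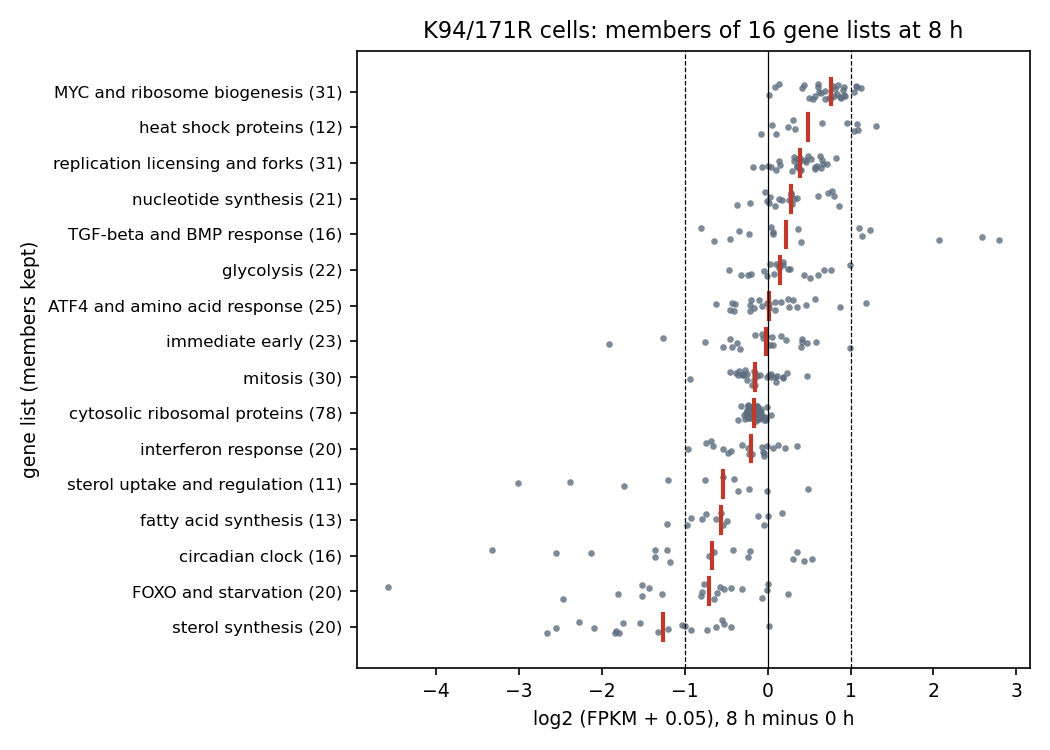
Each point is a kept member of a gene list (rows, with the number kept in brackets), placed by its change at 8 h in log2 (FPKM + 0.05) on the horizontal axis; red bars are list medians and dashed lines mark 1 log2 unit. Medians run from -1.26 for sterol synthesis to 0.77 for MYC and ribosome biogenesis.

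Some of the largest values rest on genes that cannot be read with the same ease. The lowest changes of genes with a symbol were C1orf134 at -7.27, RNASEK-C17orf49 at -6.75 and FMC1-LUC7L2 at -5.78, and among the highest was CHURC1-FNTB at 5.16. The last 3 are read-through transcripts of neighbouring genes, and 12 genes past 1 log2 unit were named as such a pair. They share exons with their parts, and the authors' estimate of how the reads divide can move from library to library. CBS, listed near 0 at 0 h and at 1.77 at 8 h, has a near copy in newer assemblies. H2AC20 and H2BC17 are uncertain as well, since replication-dependent histone RNAs mostly lack the poly(A) tail that the library kit selects. Of the genes kept, 4 were under an FPKM of 0.05 at 0 h and 11 at 8 h.

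The other lines could be set beside the mutant for part of the genes. H460 cells and cells with wild-type fusion were given the same serum and 4-OHT and lie in a table with other identifiers, of which 946 could be paired with the mutant's genes, all on chromosome 1. Of these, 516 reached an FPKM of 1 at 0 h or 8 h in each line. Across these 516 genes the 8 h change in the mutant and in H460 had a Pearson's r of 0.37 and a Spearman's rho of 0.41, and the mutant and the wild-type line had 0.07 and 0.09. Genes are not independent replicates, each point rests on 1 library a side, and the tables were normalised separately, so these values are descriptions. Of the 516 genes, 9 were at least 1 higher and 9 at least 1 lower in the mutant, 8 and 2 in H460, and 22 and 14 in the wild-type line.

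Both sterol synthesis genes that could be paired were lower at 8 h in the mutant line and higher in the other lines. HSD17B7, a late enzyme of the route, had 30.2, 8.97 and 7.39 at 0, 8 and 16 h in the mutant line, 13.5, 27.2 and 14.6 in H460, and 10.8, 26.7 and 18.2 in the wild-type line. FDPS had 581, 377 and 161 in the mutant line, 180, 378 and 462 in H460, and 162, 394 and 349 in the wild-type line. The mutant's 0 h library was thus the highest of the 3 lines for both genes at 0 h, and its 8 h level of FDPS was close to that of the others. These genes have no replicate in any line, and the difference was not tested. The clock gene PER3 was at 0.530 and 0.606 in H460 and at 0.356 and 0.767 in the wild-type line at 0 and 8 h, under the level of 1.91 that the mutant had at 0 h. EFNA1, an ephrin ligand, was lower at 8 h in all lines, with 25.2 and 9.52 in the mutant, 36.6 and 15.4 in H460, and 51.9 and 12.6 in the wild-type line. IGFN1 was higher at 8 h in all, with 3.72 and 12.3, 0.436 and 1.28, and 2.74 and 16.1. ATAD3B, a mitochondrial membrane ATPase, had 13.3 and 32.7 in the mutant, 27.8 and 42.7 in H460, and 25.5 and 22.7 in the wild-type line. MRTO4, a factor of ribosome assembly, had 18.6 and 38.7, 41.0 and 44.9, and 41.2 and 38.3, in the same order.

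**Figure D5:**
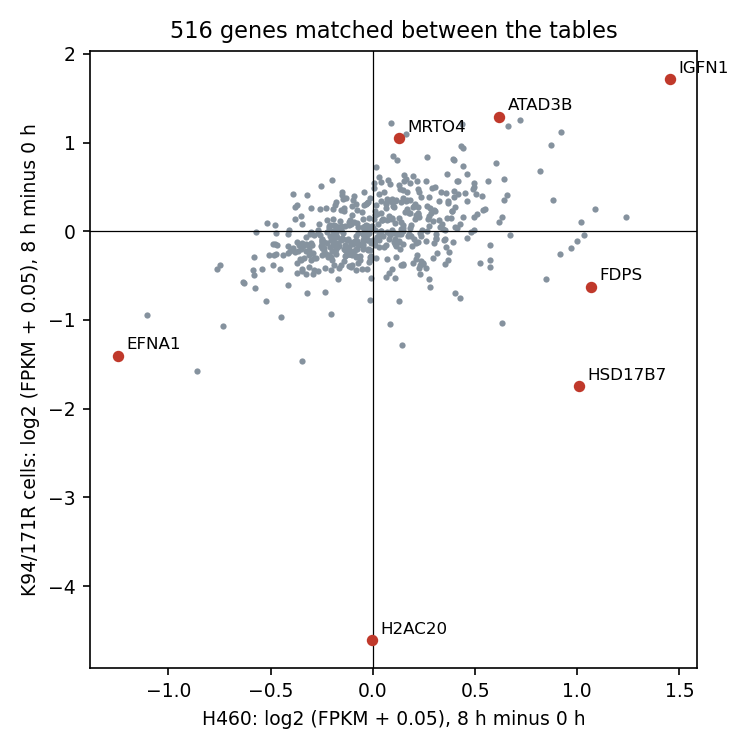
Each of the 516 points is a gene paired between the tables, placed by its change at 8 h in log2 (FPKM + 0.05) in H460 (horizontal axis) and in K94/171R cells (vertical axis). FDPS and HSD17B7 lie at the lower right, at 1.07 and -0.62 and at 1.01 and -1.74, and EFNA1 and IGFN1 lie in the corners where both lines moved the same way.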

How the data were processed

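RNA-seq libraries were made with a stranded poly(A) kit and sequenced on a NextSeq500. Per the study's methods and the submitters' processing notes, reads were trimmed with Cutadapt, mapped to hg19 with STAR 2.5.0 and quantified with Cufflinks and Cuffdiff 2.2.1. Annotation and use of the strand are not given in the sources used here. The authors deposited these FPKM values gene by gene, in separate tables for the mutant line and the other lines. FPKM carries no read number, so precision by depth is unknown, and low genes are the least exact.

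Ensembl identifiers gave symbols for 19306 of 19869 genes. Genes whose FPKM reached 1 at 0 h or 8 h were kept. Changes were log2 of FPKM with a pseudocount of 0.05, which understates the change of low genes, computed with pandas 2.3.3 and numpy 2.4.6. With 1 library a group no test was run; counting was checked on simulated data. Gene coordinates are from GENCODE on hg19. Promoters are RefSeq's, on GRCh38.p14, and 9228 of 11185 kept genes with a symbol matched. The H460 and wild-type table was paired through identifiers of the study's supplementary workbook, of which no value was used.

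The members and lists were chosen with earlier results of these data known. Genes were named if among the 12 largest rises or falls, the 10 largest with FPKM of at least 10, the 4 largest past 1 log2 unit in each list (or the 2 largest), the highest of each list, or the restriction-point complexes; the lists of metallothioneins, zinc transporters, MYC and MAX, BMP and aryl hydrocarbon receptor genes, and other genes printed as context for these, were chosen after their values were seen. Some genes are not reported here. Alternatives were other pseudocounts, filters and scalings, and leaving out small RNA genes.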

Additional observations from a re-analysis of the deposited data

Results flagged for a closer look

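Of the genes paired between the tables and kept in both lines, 4 moved in opposite directions in the mutant line and in H460 by at least 0.5 log2 units between 0 and 8 h. HSD17B7, an enzyme of late sterol synthesis, had a change of -1.74 in the mutant line and 1.01 in H460. FDPS, which makes farnesyl pyrophosphate, had -0.62 in the mutant line and 1.07 in H460. HCN3, an ion channel gene, had -1.04 and 0.63, and HHLA3 had -0.54 and 0.85, in the same order. HCN3 and HHLA3 were chosen after their values were seen. Each value rests on 1 library a side, the lines lie in tables that were normalised separately, and the difference was not tested.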

How the results depend on the processing

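No paired analysis was possible because each group is 1 library, and no replicate could be left out for the same reason. The counts of genes at least 1 higher, at least 1 lower, at least 2 higher and at least 2 lower (143, 280, 16 and 53) moved by over 1.5 times under 3 settings. They were 65, 126, 7 and 13 with a pseudocount of 1, they were 551, 901, 98 and 198 with no filter on low FPKM, and they were 74, 104, 8 and 16 when the FPKM had to reach 5, which leaves fewer genes. With a mean FPKM of at least 1 over both libraries the count at least 2 lower was 35, and the other 3 counts stayed within 1.5 times. A pseudocount of 0.01, rescaling to the same FPKM sum, centring and leaving out small RNA genes, of which the table has 0, kept all 4 counts within 1.5 times. When the FPKM had to reach 5, the medians of the glucocorticoid response, RUNX factors and partners, neuroendocrine markers and the MYC and MAX network changed sign, to 0.0363, 0.193, 0.0826 and 0.0175. With a pseudocount of 1, 46 of 206 named genes moved by 0.2 log2 units or more, with 16 for a pseudocount of 0.01, 0 under the other settings, and no gene past 1 log2 unit reversed. Low genes carry most of these shifts, and depth is unknown.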

Other observations

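A few genes not described above were also far from 0. NKAIN2, a gene named for its contact with the sodium pump, had an FPKM of 33.3 at 0 h, 5.80 at 8 h and 5.30 at 16 h. DEPP1, a FOXO target, had 1.38, 0.0842 and 0.213. HBP1, a repressor of the cell cycle, had 14.2, 4.99 and 9.38, and SPHK1, which makes sphingosine 1-phosphate, had 5.595, 15.8 and 12.7. RARB, the retinoic acid receptor beta, had 7.05, 2.93 and 2.45. HBP1 and SPHK1 were chosen after their values were seen.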
